A study of Mus musculus with 2 samples.

Results

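The late-named mouse microRNA (miRNA) genes are the 146 genes whose symbols carry a number from 5000 to below 6600, of 1973 miRNA genes counted in newborn mouse adrenal glands. They were chosen by symbol alone, and 3 of them carry a suffix after the number. In the 2 libraries, 33 of the 146 held at least 1 read and 113 held none. Their reads came to a mean of 0.0213% of all counted, and a single gene, Mir5099, held more of them than all the other members together.

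The study measured small RNA from the adrenals of B6NCrl mice, a Black 6 substrain, on postnatal day 0. Each library came from the 2 adrenals of 1 pup, and the pups, called pup 1 and pup 2 here, were from the same pregnancy. RNA was limited to below 30 nucleotides, the sex was not collected, and the animals carried no treatment or engineered allele that the labels name. Both samples carry the same donor identifier, so whether the spread between them is biological or technical rests on the descriptions, which name separate pups.

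A miRNA gene is transcribed as part of a longer RNA, from which the nuclear enzyme Drosha releases a hairpin and the cytoplasmic enzyme Dicer a short duplex. One strand of the duplex, the mature miRNA, is loaded into an Argonaute protein and guides it to messenger RNAs that pair with its seed, the bases next to its 5′ end. Numbers in the symbols were given in the order in which the sequences were registered, so high numbers mark miRNAs reported late, many of them from deep sequencing alone. Many hairpins lie inside other genes: intronic ones can be cut from the host's primary transcript, and mirtrons are short introns that splicing itself releases as a hairpin.

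The mature sequences of the 10 most abundant members, as far as RefSeq for the assembly GRCm38.p6 gives them, are shown to let their base composition be compared. They are written 5′ to 3′ with the seed, bases 2 to 8, in capitals. Mir5099 led the list, and the other nine follow in order of mean level.
miR-6540-3p: uCUGAAGCuugcuuaccucca
miR-6236: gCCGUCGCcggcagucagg
miR-6240: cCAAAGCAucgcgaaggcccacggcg
miR-5126: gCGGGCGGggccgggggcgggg
miR-5113: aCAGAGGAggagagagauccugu
miR-6538: cGCGGGCUccggggcggcg
miR-5114: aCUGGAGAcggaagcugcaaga
miR-5132-5p: gCGUGGGGugguggacucagg
miR-5132-3p: cUGAUGUUccccaucccgcag
miR-5100: uCGAAUCCcagcggugccucu

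Several members that held no read carry the seed of a family that was abundant in the same glands. The first lines below give the seed of miR-15, miR-16, miR-195 and miR-322, a family known for restraining the cell cycle. The next lines give the seed of miR-130 and miR-301, and the last that of miR-125 and miR-351. Each set ends with an abundant family member.
miR-6342: cAGCAGCAaucuggucuuugag
miR-6353: uAGCAGCAcguauuuauccuauu
miR-6419: cAGCAGCAaucugacacaugga
miR-322-5p: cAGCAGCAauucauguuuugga
miR-6341: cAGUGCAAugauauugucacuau
miR-6389: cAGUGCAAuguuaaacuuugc
miR-130a-3p: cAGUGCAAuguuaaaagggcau
miR-6367: uCCCUGAGacccugguucagga
miR-6394: uCCCUGAGuggggccaggucu
miR-125a-5p: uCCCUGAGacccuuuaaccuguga

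Counts are the deposited reads on the strand of the gene, and levels are CPM, a gene's count over the summed count of all genes of that pup, scaled to a library sum of 1000000. The sums were 1131762 reads in pup 1 and 3327743 in pup 2, so 1 read was worth 0.884 CPM and 0.301 CPM, and a count of 0 allowed up to 2.65 CPM and 0.902 CPM, the value of 3 counts. Reads placed at several loci, 34.9% and 32.2% of all reads, are in no gene's count, so these limits do not cover repeated sequence. The tissue label was checked on 24 marker miRNA genes: Mir375 of neuroendocrine cells stood at 37586 and 30415 CPM and Mir126a of endothelium at 81621 and 102288 CPM. Of pancreas, Mir216a was at 0 in both pups and Mir217 at 0.884 and 1.80 CPM. Mir9-2 and Mir124a-1 of brain and Mir1a-1 of muscle were also at 0, but their mature sequences are encoded at more than one locus, so those zeros say nothing of the tissue. Mir122 of liver stood at 2979 and 4081 CPM. Of kidney, Mir192 stood at 101 and 158 CPM, Mir215 at 72.5 and 23.7 CPM and Mir194-1 at 13.3 and 2.70 CPM. Mir206 of skeletal muscle stood at 82.2 and 411 CPM, and Mir133b of muscle at 0 and 1.20 CPM. Of miRNAs studied in adrenal cortex, Mir21a stood at 14000.3 and 15497 CPM, Mir125a at 12503 and 9276 CPM and Mir34c at 3909.8 and 3453 CPM. Mir132 stood at 516 and 510.3 CPM and Mir212 at 30.9 and 44.5 CPM. Blood was represented by Mir451a at 261 and 263 CPM and Mir223 at 704 and 883 CPM, and the part of other tissues in the values below was not tested.

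Of the 146 members, 33 (22.6%) held a read, against 635 of all 1973 genes (32.2%). Both pups held reads of 19 members, pup 1 alone of 3 and pup 2 alone of 11. The 3 seen in pup 1 alone, Mir5120, Mir5133 and Mir6539, had 1 read each, and the 11 seen in pup 2 alone had at most 7 and 31 in all. Pup 2 was sequenced more deeply and held reads of 30 members against 22 in pup 1. When its reads were drawn down at random to the depth of pup 1, it held reads of 22. Counts were small throughout: 23 of the 33 had 10 or fewer reads over both pups and 7 had exactly 1. At least 10 CPM in both pups was reached by 3 members (2.05%), against 13.9% of all genes.

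**Figure D1:**
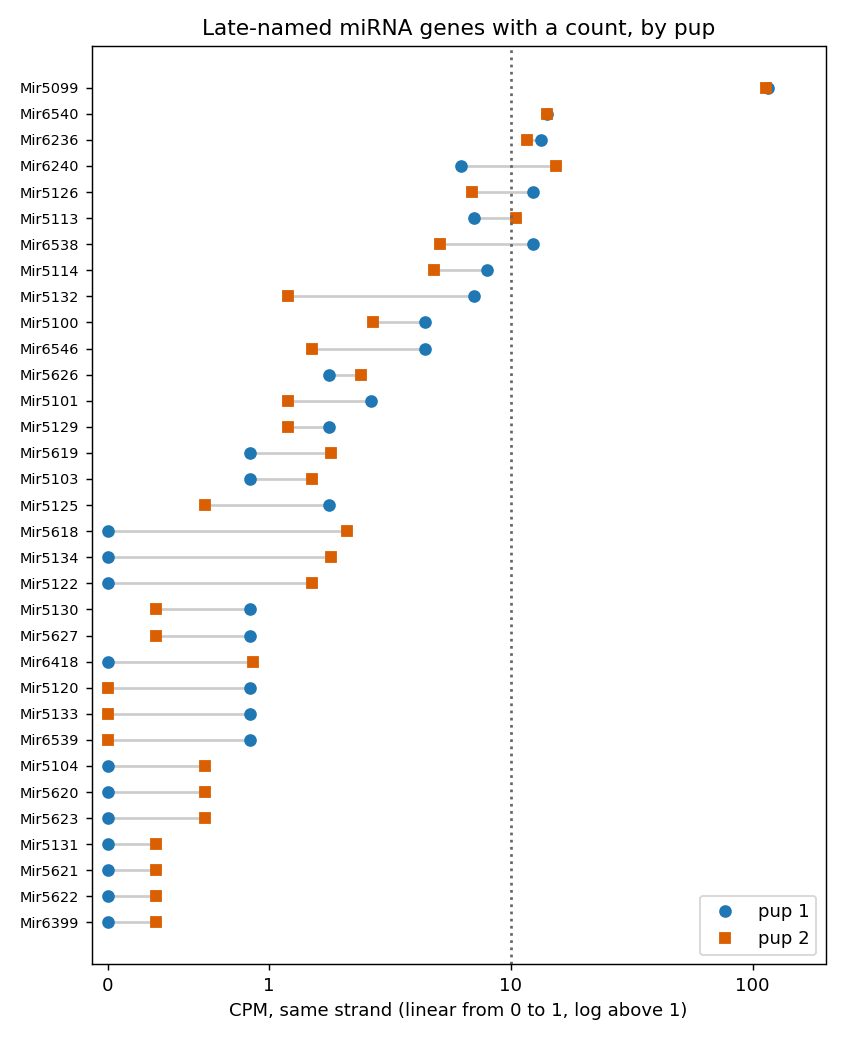
Level in CPM (horizontal axis, linear from 0 to 1 and logarithmic above) of each of the 33 members that held a read, in pup 1 (circles) and pup 2 (squares), with no error bars since each point is 1 library. Mir5099 stands apart at 116 and 114 CPM, and Mir6540 and Mir6236 are the only others right of the dotted 10 CPM line in both pups.

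All members together had 248 reads in pup 1 and 687 in pup 2. That was 0.0219% of the reads (exact Clopper-Pearson 95% interval 0.0193 to 0.0248) and 0.0206% (0.0191 to 0.0222), a mean of 0.0213% ± 0.000897 (SD, n = 2). The ratio of the shares, pup 2 over pup 1, was 0.942, with an exact conditional Poisson 95% interval of 0.814 to 1.09. These intervals, like those below, cover counting error only, with each read taken as a separate molecule. They leave out variation between pups and between preparations. PCR copies of a molecule cannot be told from separate molecules, and such copies would make the intervals too narrow.

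Mir5099 had 131 reads in pup 1 and 379 in pup 2, which is 116 and 114 CPM, a mean of 115 CPM ± 1.31 (SD, n = 2). It ranked 181 among all genes by mean CPM. Its part of the members' reads was 52.8% in pup 1, with a 95% interval from 46.4% to 59.2%. In pup 2 it was 55.2%, from 51.4% to 58.9%. Its hairpin lies at chr12:36816205-36816278 on the plus strand (mm10, as for all positions here), inside no annotated gene on either strand. The ratio between pups was 0.984 (95% interval 0.805 to 1.21), so the pups differed by less than counting error.

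Mir6540 had 16 and 47 reads, 14.1 CPM in each pup. It lies at chr16:42303362-42303469 on the minus strand, in an intron of 48106 bases of Gap43, which encodes a growth cone protein of neurons, and 10995 bases from the nearer splice site. Mir6236 had 15 and 39 reads, 13.3 and 11.7 CPM, and lies at chr9:110281287-110281409 on the plus strand outside any gene. The intervals of their ratios between pups, 0.556 to 1.89 and 0.477 to 1.73, included 1.

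Mir6240 was the only member with a mean of at least 10 CPM that passed 2-fold between the pups. It had 7 reads in pup 1 and 51 in pup 2, 6.19 and 15.3 CPM, a log2 ratio of 1.18 with 1 CPM added to each value. The plain ratio was 2.48, with a 95% interval of 1.12 to 6.47. It lies at chr5:114851948-114852064 on the plus strand outside any gene. With 1 such member among 4 (25.0%), against 15 of 284 genes (5.28%) in all, the share rests on a single gene. In bulk tissue a difference in the number of expressing cells and in RNA per cell cannot be told apart, and a single library of each pup allows no p-value.

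Below these stood 6 members with means of 3.56 to 9.64 CPM. Mir5126 had 14 and 23 reads, 12.4 and 6.91 CPM, from chr1:84695839-84695915 on the plus strand. That hairpin is 83.1% G and C and lies opposite the 5′ UTR exon of Dner, a neuronal transmembrane protein related to Notch ligands. Mir5113 had 8 and 35 reads, 7.07 and 10.5 CPM, from chr15:80940039-80940120 on the plus strand, in the 3′ UTR of Tnrc6b. Its host encodes a partner of Argonaute in miRNA silencing.

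Mir6538 had 14 and 17 reads, 12.4 and 5.11 CPM, from chr12:26414901-26415010 on the minus strand, in an intron of the ubiquitin ligase gene Rnf144a. Mir5114 had 9 and 16 reads, 7.95 and 4.81 CPM, from chr19:44303171-44303231 on the plus strand, inside the coding sequence of Scd2, a stearoyl-CoA desaturase. Mir5132 had 8 and 4 reads, 7.07 and 1.20 CPM, from chrX:74023528-74023598 on the minus strand in Irak1, a kinase of interleukin-1 signalling. In the coding transcripts of Irak1 that hairpin spans an exon-intron boundary, and a noncoding transcript holds it in an exon. Mir5100 had 5 and 9 reads, 4.42 and 2.70 CPM, from chr11:60728663-60728726 on the plus strand, in an intron of Mief2, a gene of mitochondrial division.

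Mir5132 and Mir6538 were lower in pup 2, with ratios of 0.170 (95% interval 0.0375 to 0.635) and 0.413 (0.192 to 0.905). Together with Mir6240 they were the 3 of 33 members whose interval excluded 1, with no adjustment for the number of members. Of the 19 members seen in both pups, 14 had the higher CPM in pup 1 and 5 in pup 2. That count leaves out the 3 members seen in pup 1 alone and the 11 seen in pup 2 alone. To enter it, a member needed a read in pup 1, worth 0.884 CPM against 0.301 CPM in pup 2. The count therefore favours members higher in pup 1. The pups ordered the members from Mir6540 to Mir5114 differently, so the order of their means is not settled by 2 libraries.

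The next 5 by mean level had 6 to 10 reads over both pups. Mir6546 (5 and 5 reads) lies in an intron of the IgG receptor gene Fcgr3, Mir5619 (1 and 6) in an intron of Nudt9, an ADP-ribose hydrolase, and Mir5626 (2 and 8) outside any gene. Mir5101 (3 and 4) and Mir5129 (2 and 4) lie across exon-intron boundaries of Syne2, a nuclear envelope protein, and Zeb2, a transcription factor. The remaining 18 members with a read had means of 0.150 to 1.19 CPM and from 1 to 7 reads over both pups.

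By number, the members fell into runs that differed widely in how many held reads. These runs were drawn after the values were seen and are given as a description. Of the 33 genes numbered from 5000 to below 5200, 17 (51.5%) held reads, and of the 13 from 5600 to below 5700, 8 (61.5%). The largest run, from 6300 to below 6500, had 85 genes, of which 2 (2.35%) held reads: Mir6418 with 3 and Mir6399 with 1, all in pup 2. Of the 7 genes from 6200 to below 6300 and the 6 from 6500 to below 6600, 2 and 4 held reads, and the 2 from 5700 to below 6000 held none. The run that starts at 5000 gave 186 of the 248 reads in pup 1 and 496 of the 687 in pup 2, most of them from Mir5099.

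**Figure D2:**
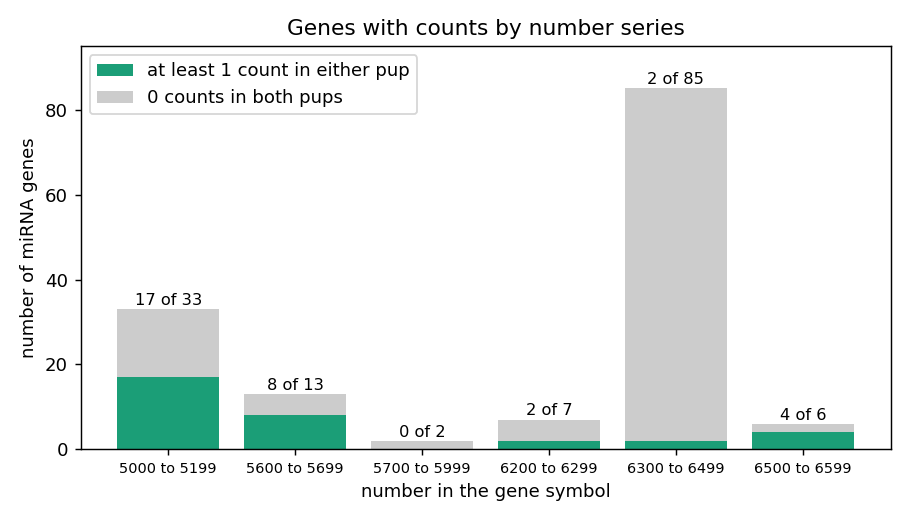
Number of members (vertical axis) in each run of symbol numbers (horizontal axis), divided into those with at least 1 read in either pup (green) and those with 0 in both (grey). The run that starts at 6300 holds 85 of the 146 members and 2 of the 33 with a read.

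Set beside the rest of the catalogue, the share of members with a read was below that of genes numbered lower and higher. Of the 474 genes of the let-7 family and of numbers below 1000, 329 (69.4%) held a read, and their median level among those with a read was 143 CPM. For the 156 genes numbered from 1000 to below 4000, 90 (57.7%) held a read, at a median of 2.52 CPM. The members with a read had a median of 1.18 CPM. Genes numbered 6600 and above held reads more often, 154 of 275 (56.0%), at a lower median of 0.592 CPM, and 1 of them (0.364%) reached 10 CPM in both pups. Genes with other symbols held a read in 29 of 843 cases (3.44%), and the 79 with no symbol in none. No test was made of these shares, since genes are not replicates.

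**Figure D3:**
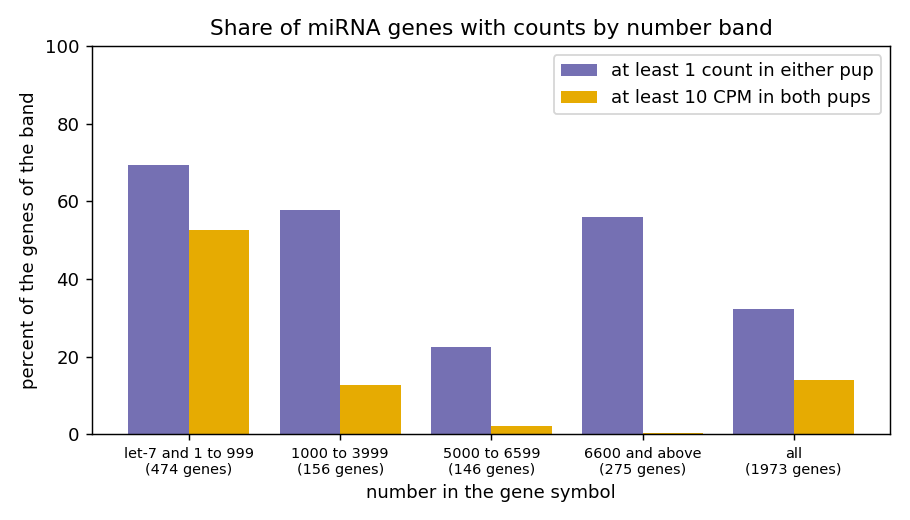
Percent of the miRNA genes of each number band (vertical axis) with at least 1 read in either pup (purple) and with at least 10 CPM in both pups (yellow), by the number in the symbol (horizontal axis, with the number of genes, 1973 in all, of which those with other or no symbols are counted only in the last pair of bars). The band that starts at 5000 reaches 22.6% and 2.05%.

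The transcripts that the members overlap were read from GENCODE M21 on the same assembly. On the same strand, 71 of the 146 hairpins (48.6%) lay wholly inside another gene, against 52.4% of all miRNA genes. The share was higher in the other numbered bands. It was 62.7% for let-7 and numbers below 1000, 73.1% from 1000 to below 4000 and 90.5% from 6600 up. Among genes with other symbols it was 35.8%. The 79 genes with no symbol could not be placed and count as outside any gene in the 52.4%, which is thus a lower limit. The hosts of 62 were protein-coding. A further 31 lay inside a gene on the opposite strand only, and 44 inside no gene. Among the 71, the hairpin lay in an exon for 13, across an exon-intron boundary for 9 and in an intron for 49.

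Reads were held by 8 of the 13 exonic members (61.5%), 4 of the 9 at a boundary (44.4%), 14 of the 49 intronic ones (28.6%) and 7 of the 75 with no gene on their strand (9.33%). The run of numbers moved with the place: 56 of the 75 were in the run that starts at 6300, and none of these held a read. Within the run that starts at 5000, reads were held by 8 of 10 exonic, 3 of 4 boundary, 4 of 10 intronic members and 2 of 9 with no gene on their strand. The part of the number run in the difference by place was otherwise not tested. Without regard to place, 22.6% of the members and 32.2% of all miRNA genes held a read. Shares by place were not computed for all miRNA genes, so whether the difference is particular to the members was not tested.

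**Figure D4:**
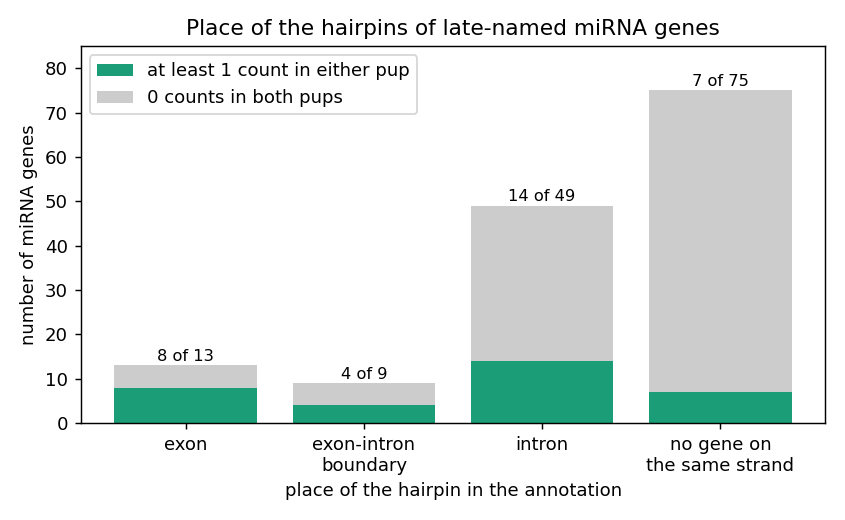
Number of members (vertical axis) by the place of the hairpin on its own strand (horizontal axis), divided into those with at least 1 read in either pup (green) and those with 0 in both (grey). Exonic hairpins held reads in 8 of 13 cases and hairpins with no gene on their strand in 7 of 75.

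By reads the order was another. The 7 members with no gene on their strand held 170 of the members' reads in pup 1 (68.5%) and 503 in pup 2 (73.2%), and without Mir5099 they held 39 and 124. Exonic members held 28 and 67 reads, boundary members 5 and 17, and intronic members 45 and 100. The levels of the host messenger RNAs were not measured in these libraries, so reads of a host cannot be told from reads of the hairpin where the hairpin is exonic.

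The 8 exonic members with a read lay in 5′ UTRs, 3′ UTRs, coding sequence and noncoding exons. Besides Mir5113, Mir5114 and Mir5132, 4 of them are named here, chosen after their values were seen. Mir5130 (1 and 1 reads) and Mir5133 (1 and 0) lie in 5′ UTRs of coding transcripts. Their hosts are Kctd12, an auxiliary subunit of GABA-B receptors, and Glce, an epimerase of heparan sulfate synthesis. Mir5131 (0 and 1) lies in the coding sequence of the phospholipase gene Ddhd1, and Mir5103 (1 and 5) in the long noncoding RNA gene Gm37233.

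The 5 exonic members with no read in either pup were Mir5112 and Mir6410, in noncoding genes, Mir5116 and Mir6409, in the 3′ UTRs of Mmgt1 and Gm5134, and Mir5625, in the 5′ UTR of Slc35f6. Exonic members were found with and without reads in both 5′ and 3′ UTRs.

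Introns that held a member were 92 to 329018 bases long, with a median of 13369. The median was 4982 bases for the 14 intronic members with a read and 21449 for those with none. The run that starts at 6300 held 1 of those 14 and 22 of the 35 with none. The part of the number run in this difference was not tested. Among the intronic members, hairpins within 10 bases of a splice site, the place of a mirtron, were found for 3. Mir5621 lies 9 bases from a splice site of a 251-base intron of Tmem94 and had 1 read, in pup 2. The other two, Mir5617 in a 92-base intron of the synapsin gene Syn1 and Mir5710 in Dnaja4, a co-chaperone gene, had none. The intron of Mir5710 is 2139 bases long. The 9 members across an exon-intron boundary, of which 4 held reads, also span a splice site and are not among these 3.

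The hairpins of members with a read were shorter, richer in G and C and more stably folded. Their median length was 78.0 nucleotides against 102 for those at 0, their median G and C content 55.7% against 48.8%, and their median folding energy by RNAfold -0.45 against -0.32 kcal/mol per nucleotide. Within the run that starts at 5000, the lengths were 78.0 and 77.5, the G and C contents 59.4% and 51.5%, and the energies -0.48 and -0.39. The difference in length was thus not seen within that run, while those in composition and folding had the same direction there. They did not in every run: the energies were -0.45 with a read and -0.48 at 0 in the run that starts at 5600, -0.29 and -0.31 in that at 6200, and -0.30 and -0.31 in that at 6300. The G and C contents in the run at 6300 were 47.5% with a read and 48.6% at 0. Among abundant members the values varied: Mir5099 had 37.8% G and C and -0.36 kcal/mol per nucleotide, and Mir6240 had 47.0% and -0.21.

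**Figure D5:**
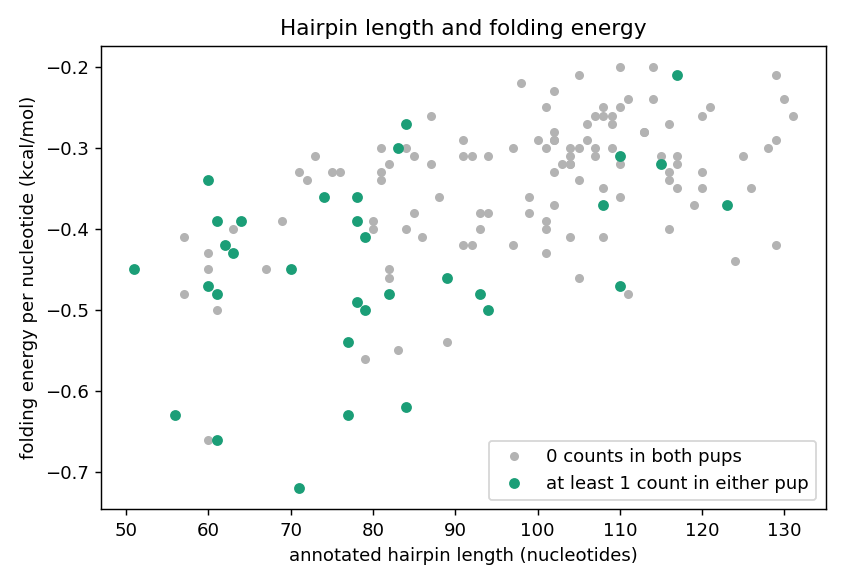
Folding energy per nucleotide in kcal/mol (vertical axis, lower is more stable) against the annotated length of the hairpin in nucleotides (horizontal axis) for members with at least 1 read in either pup (green) and with 0 in both (grey). Green points lie mostly at shorter lengths and lower energies, with medians of 78.0 nucleotides and -0.45 kcal/mol per nucleotide.

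RefSeq gave 146 mature sequences for 127 of the members, 18 to 26 nucleotides long with a median of 22. Both arms of the hairpin were annotated for 11 of the 31 matched members with a read and for 8 of the members at 0, against 1 annotated arm for 88. In the run that starts at 5600, both arms were also annotated for members at 0, such as Mir5616 and Mir5617. The part of the number run in this difference was not tested. The exact mature sequence of 124 of the 127 was found in no annotated transcript from elsewhere in the genome, counting apart the transcripts that overlap the hairpin itself. The exceptions were Mir6382, shared with Gm27428, Mir6546, shared with Gm27552 and Gm27844, and Mir6481, shared with the mitochondrial phenylalanine tRNA gene mt-Tf. The count of Mir6546 and the zeros of Mir6382 and Mir6481 are therefore uncertain. Copies of a mature sequence outside the annotated transcripts would not have been found, so the other members are not shown to be unique in the genome. A stretch of 20 bases of the hairpin was shared with another gene by 32 members, of which 9 (28.1%) held a read, against 24 of the other 114 (21.1%). Mir6236 shared such a stretch with 17 genes and Mir6240 with 9, and their counts hold only reads placed at a single locus. Neither hairpin was compared with ribosomal RNA or repeat sequences, so what RNA their reads came from was not tested.

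On the opposite strand no member had a read in either pup, and their reads were all in the annotated direction. This was usual: 41 of all genes (2.08%) had such reads, and 95.7% of the genes with a read had none.

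The seeds of 30 members matched that of a miRNA outside the set, and 5 of those 30 (16.7%) held reads, against 22.6% of all members and 32.2% of all genes. The abundant families named above had highest mean levels of 24717 CPM for the miR-15 and miR-322 seed, 12418 CPM for the miR-130 seed and 10889 CPM for the miR-125 seed. All 7 members that share those seeds had no read in either pup. They are all in the run that starts at 6300, where 97.6% of the members were at 0. Mir6383, with the seed of miR-17, was also at 0, beside 3480.1 CPM for the highest gene of that seed.

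Of the seeds, 10 were shared by at least 2 members, 24 members in all. Besides the 3 seeds above they were the following, shown to let the members of each be compared. The first 4 carry the seed of miR-24 and the next 2 that of miR-206, a miRNA of skeletal muscle.
miR-5124b: uGGCUCAGugacuaagaagca
miR-6369: uGGCUCAGuucaguguuggugag
miR-6410: uGGCUCAGggacuacucugugc
miR-6413: uGGCUCAGaagagcagguagu
miR-6349: uGGAAUGUgggaggggcaugcg
miR-6382: uGGAAUGUaaagagagcacacaag
miR-6368: cUGGGAAGcaguggaggggag
miR-6404: gUGGGAAGugacaagggguag
miR-6405: gUGGGAAGcagugggaagcagug
miR-6346: uAGCAGGUgucugcaaugccaa
miR-6350: uAGCAGGUgcauuauaaauau
miR-6239: uAGCGUUGgaucacucggug
miR-6351: uAGCGUUGcucagggagcacaug
miR-6339: gAUGCCUUuguccucaguguuag
miR-6386: cAUGCCUUagggugggaugcaagu
miR-5626-3p: cAGCAGUUgagugaugugacac
miR-6402: gAGCAGUUuucccaggaacccgc

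Of these 17 genes, Mir5626 held reads, 10 over both pups, and the others held none. Of the 31 matched members with a read, 25 shared no seed with another member or with a miRNA gene outside the set. Mir6240 had the seed of miR-330-3p, whose gene stood at a mean of 309.6 CPM, and Mir5129 that of miR-455-5p, at 1163 CPM. A shared seed is a match of letters and says nothing here of shared targets.

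Within 10 kb, 5 members had another of the counted miRNA genes on either strand. Of the 5, 3 held reads, against 22.6% of all members and 32.2% of all genes. So few members allow no reading of that share, and it was not computed for all genes with such a neighbour. One of the 3 is Mir6546, whose count is uncertain because its neighbour Gm27552 shares its mature sequence. Mir5132 lies near Mir718, which had no read, although Mir5132 had 8 and 4. Mir5134 (0 and 6 reads), across an exon-intron boundary of the cyclin gene Ccnf, lies near Mir6965 (0 and 3).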

How the data were processed

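The authors deposited, per the labels and sample notes, raw counts of reads per miRNA gene on mm10 with GENCODE M4, 1 table per library, unscaled and unpooled. For the aligner and for trimming, tool and version were not given in the sources used here. Same-strand counts were used, and rows that name no gene were left out of the totals of 1131762 and 3327743. CPM, shares and ratios were computed here with Python 3.11.15 and SciPy 1.17.1, with exact 95% intervals. Only those of the ratios were tested, on simulated Poisson counts, which hold no PCR copies or variation between pups. Symbols and positions came from GENCODE M21, sequences from RefSeq, and folding energies from RNAfold 2.7.2. By rule, members at 10 CPM in both pups, the 15 highest means, those past 2-fold (prior 1 CPM, mean at least 10 CPM) and 5 exonic members without reads were named, any other after its values were seen. Sequences were printed for the 10 highest means and for shared seeds. The members and lists were chosen with earlier results of these data known. With 2 libraries of 1 group, no test between groups was possible, and the SD is over n = 2. Mature sequences were searched in annotated transcripts, and the whole genome was not searched. Alternatives used edgeR 4.0.16 (TMM) and DESeq2 1.42.0 (size factors) for scaling only. The host of 1 exonic member is not reported here.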

Additional observations from a re-analysis of the deposited data

How the results depend on the processing

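The 33 members with a read became 20 when at least 3 reads in a pup were required, 27 when pup 2 was thinned to the depth of pup 1, and 0 on the opposite strand. With either pup left out, 22 to 30 members held a read. The 3 members at 10 CPM in both pups became 14 at 1 CPM, and 5 (range 5 to 5) with either pup left out, because 1 pup then decides. They stayed at 3 under TMM, DESeq2 size factors and the unstranded column. The mean share of 0.0213% became 0.0110% with all reads as the denominator. The 1 member past 2-fold, Mir6240, became 0 with a prior of 5 CPM, and 7 with no filter on low values. Those 7 were Mir6240, Mir5122, Mir5134 and Mir5618, higher in pup 2, and Mir5132, Mir6538 and Mir6546, lower; Mir5122, Mir5134 and Mir5618 had no read in pup 1. Members inside another gene numbered 102 on either strand. None of the 30 mean levels of the 15 named members under TMM or DESeq2 scaling moved by 1 SD. In the unstranded column 2 did, those of Mir5099 and Mir6540, at 111 and 13.7 CPM. Both scalings kept the geometric mean of the library sizes, so means over the pups could move little. The comparison of means is therefore no check on the level in each pup. No paired analysis was possible because there is 1 group. A match of the mature sequences to the genome was not run. Depth limits most members: 1 read is 0.884 or 0.301 CPM, and a member at 0 in pup 1 may stand at up to 2.65 CPM there. That limit covers only reads placed at a single locus, so a member with repeated sequence may stand higher. Mir5098, at 0 in both pups, shared a stretch of 20 bases with 3039 genes.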
